A study of Mus musculus with 6 samples.

Results

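The clustered protocadherin genes lie in 3 neighbouring clusters, alpha, beta and gamma, on mouse chromosome 18 (mm10). ATAC-seq peaks were taken as theirs where the summit lay inside, or within 100 kb of and nearest to, 1 of their 57 protein-coding genes. This gave 84 FM and 99 KO peaks, which merged into 112 of the 239675 regions of both lists. The alpha cluster had 31 of these regions, the beta cluster 32 and the gamma cluster 49. The gene span ran from 36930285 to 37841873, with the alpha genes at 36930285 to 37188897, the beta genes at 37264998 to 37521419 and the gamma genes at 37661775 to 37841873.

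ATAC-seq marks accessible chromatin by the insertion of Tn5 transposase. The groups were epiblast stem cell lines with inducible Mixl1, which received doxycycline (1 µg/mL) in the 24 h before harvest, and Mixl1 KO epiblast stem cells. Mixl1 encodes a homeodomain protein made in the primitive streak, and epiblast stem cells are derived from the post-implantation epiblast. Both groups were kept on irradiated feeder fibroblasts with basic FGF and Activin A, then aggregated and differentiated in serum as embryoid bodies of 2 days. Each group had 3 libraries of 50000 cells and 1 deposited peak list. The labels do not explain the name FM, so the list of that name was assigned to the induced group by elimination. The labels do not state the promoter of the transgene, the altered part of Mixl1 or the number of clones. They give doxycycline for the induced cells alone, so Mixl1, doxycycline and the cell lines cannot be told apart. Mixl1 itself had a summit within 1 kb of a gene end in both lists, with 0 FM-only and 2 KO-only regions, and peaks do not check the knockout. No value below has a replicate error, and no test between the groups was possible with 1 list each.

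Clustered protocadherins are cadherin-like adhesion proteins, known for giving single neurons distinct surface identities. In the alpha and gamma clusters each alternate gene begins with its own promoter and a large variable exon, which is spliced to constant exons shared by the whole cluster at the far end. Beta genes consist of a single large exon. Alternate and beta promoters are chosen at random in neurons and are usually silenced by DNA methylation, whereas the C-type genes at the end of the alpha and gamma clusters are expressed more uniformly. CTCF and cohesin loop the chosen promoters to distant enhancers, of which HS5-1 lies between the alpha and beta clusters and others lie beyond the gamma cluster. All of the genes are read in the direction of rising coordinates, so the lower coordinate of a gene is called its start.

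Peaks at the clusters were mostly of low fold in both lists, as were those on the rest of chromosome 18. The deposited fold, which divides the fragments piled up at the summit by those of the surrounding background, ranged from 1.56 to 4.13 in FM peaks and from 1.56 to 6.70 in KO peaks. Fold and p-value together give the number of fragments at each summit, on the assumption that both lists were called with the same settings. The numbers ranged from 45 to 235 in the FM list (median 66.0) and from 46 to 358 in the KO list (median 68.0). The local background was at its lowest value, 28.6 fragments, at 63 of the 84 FM peaks and at its lowest value of 28.8 fragments at 74 of the 99 KO peaks. The highest summits stood at the C-type genes, near the end of the alpha cluster and at the end of the gamma cluster, with lower summits along the runs of alternate and beta genes. In bulk cells, fewer cells with an open region and less opening per cell cannot be told apart. From the first to the last gene there were 91.0 FM and 108 KO peaks per Mb. Over the rest of chromosome 18 there were 66.4 FM and 59.1 KO peaks per Mb. The 2 Mb on each side of the clusters held 641 FM and 528 KO peaks, a higher density than that of the clusters in both lists. Taken from the first to the last gene, gaps included, the clusters were thus denser than the chromosome average but not than their surroundings. Among the alpha, beta and gamma spans, gamma was the densest, with 178 FM and 217 KO peaks per Mb. Gamma alone was also denser than the 2 Mb on each side in both lists. Median fold was 2.17 (FM) and 2.25 (KO) at the clusters, and 2.01 (FM) and 2.04 (KO) on the rest of chromosome 18.

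**Figure D1:**
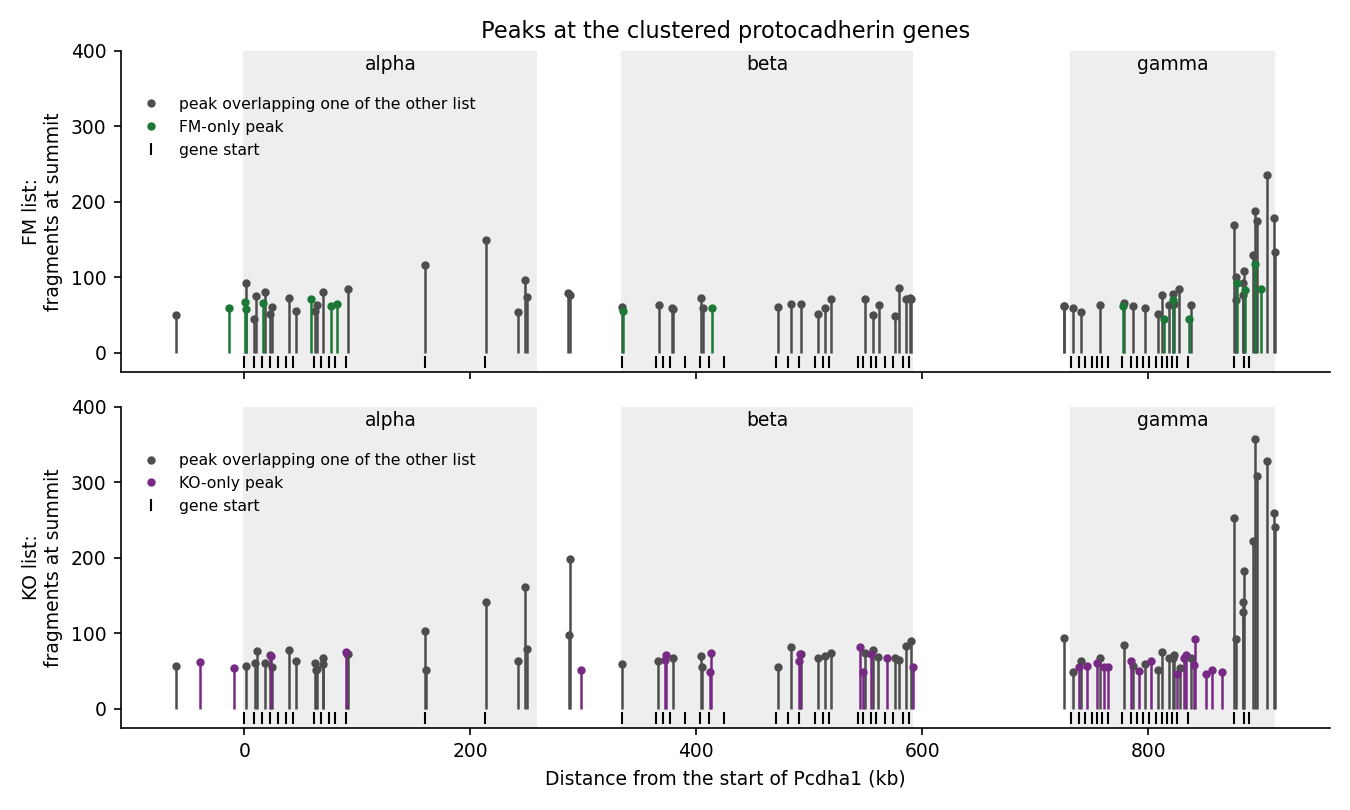
Fragments at the summit of each peak (vertical axis) against distance from the start of Pcdha1 in kb (horizontal axis), for the FM list above and the KO list below. Shaded spans are the alpha, beta and gamma genes and ticks are gene starts; FM summits reach 235 fragments and KO summits 358, both near the end of the gamma cluster.

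Over all members, 63 regions were shared, meaning that an FM and a KO peak overlapped by at least 1 bp, 17 were FM-only and 32 KO-only. FM-only regions were 15.2% of the members, against 33.5% of the 7546 regions on the rest of chromosome 18 and 43.6% of all regions. KO-only regions were 28.6% of the members, against 25.7% on the rest of chromosome 18 and 16.0% of all regions. Of the regions found in 1 list, 34.7% were FM-only at the clusters (17 of 49, exact binomial interval 21.7 to 49.6), against 56.6% on the rest of chromosome 18 (2531 of 4472, 55.1 to 58.1). In the 2 Mb on each side of the clusters the share was 63.1% (58.1 to 67.8). The intervals cover the counting of regions alone, and neighbouring regions are not independent. In 3 alternatives with fewer peaks (stricter q, fold or rank) the interval of the clusters took in the chromosome's share. Of the FM peaks at the clusters 79.8% overlapped a KO peak (69.6 to 87.7), against 56.0% on the rest of the chromosome. Of the KO peaks 67.7% overlapped an FM peak (57.5 to 76.7), against 62.1%.

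Counted by cluster, alpha had 7 FM-only and 4 KO-only regions, beta 2 and 12, and gamma 8 and 16. The FM-only share was 63.6% in alpha (30.8 to 89.1), 14.3% in beta (1.78 to 42.8) and 33.3% in gamma (15.6 to 55.3). These wide intervals overlap. The share was 56.6% on the rest of chromosome 18 and 63.1% in the 2 Mb on each side, both inside the alpha interval. Strength was also read from q, the adjusted p-value of the peak caller. Median −log10 q was 5.81 (FM-only) and 5.41 (KO-only). All peaks on the rest of chromosome 18 had medians of 5.48 (FM) and 5.76 (KO). These include shared peaks, so the comparison is not like for like. The highest −log10 q was 9.42 among the FM-only regions and 17.7 among the KO-only regions, and 3 KO-only regions and 0 FM-only regions reached 10. Of all peaks on the rest of chromosome 18, again with shared ones included, 23.1% (FM) and 28.7% (KO) reached it. The FM-only regions held 45 to 118 fragments and the KO-only regions 46 to 92. A region called in 1 list may lie just under the threshold in the other, where the files hold no value.

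**Figure D2:**
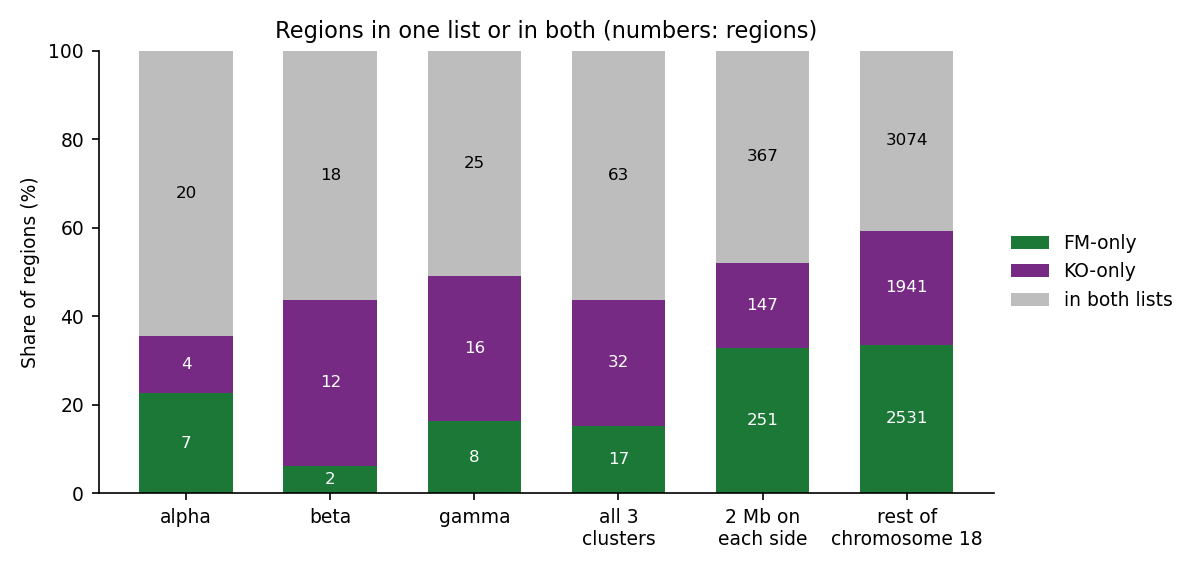
Share of merged regions (vertical axis, %) found in the FM list alone, in the KO list alone or in both, for the alpha, beta and gamma clusters, all 3 together, the 2 Mb on each side and the rest of chromosome 18; numbers in the bars are regions. FM-only regions make up 15.2% at the clusters and 33.5% on the rest of chromosome 18.

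Most alternate and beta genes had a summit about 2 kb inside the gene start, and fewer had one at the start. Of the 52 alternate alpha, beta and alternate gamma genes, 39 (75.0%) had an FM summit and 43 (82.7%) a KO summit between 1 and 2.5 kb inside the start, and 36 had both. Over 17492 other protein-coding genes of known strand on the other chromosomes, 20.5% had an FM summit and 14.7% a KO summit in that window. The window from 1 to 2.5 kb inside and the leaving out of the C-type genes were chosen after the data were seen. With the C-type genes kept, the shares of the 57 clustered genes were 71.9% (FM) and 77.2% (KO). Within 0.5 kb of the start the order was the other way. There, 5 of the 52 genes (9.62%) had an FM summit and 14 (26.9%) a KO summit, compared with 59.4% and 57.7% of the other genes in the same lists. In the mirrored window before the start, from 2.5 to 1 kb upstream, 1 of the 52 genes had an FM summit and 4 a KO summit. The background there was 13.1% (FM) and 9.37% (KO) of the other genes.

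In bins of 0.25 kb the position was narrow. The bin from 2.0 to 2.25 kb held a summit in 40.4% (FM) and 34.6% (KO) of the 52 genes, and the bin from 1.75 to 2.0 kb in 21.2% (FM) and 28.8% (KO). Among other genes the bin from 2.0 to 2.25 kb held a summit in 3.25% (FM) and 2.04% (KO). The gene table gives no exons, so a summit of an alpha or gamma gene was not placed in an exon or an intron. For the beta genes, which are 2340 to 5271 bp long, all 18 FM and all 20 KO summits of the window lay inside the gene. Variable exons of a cluster resemble each other in sequence, and the sources used here do not say how reads with several matches were treated. Whether reads of one gene contribute to the peak of another was not tested.

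**Figure D3:**
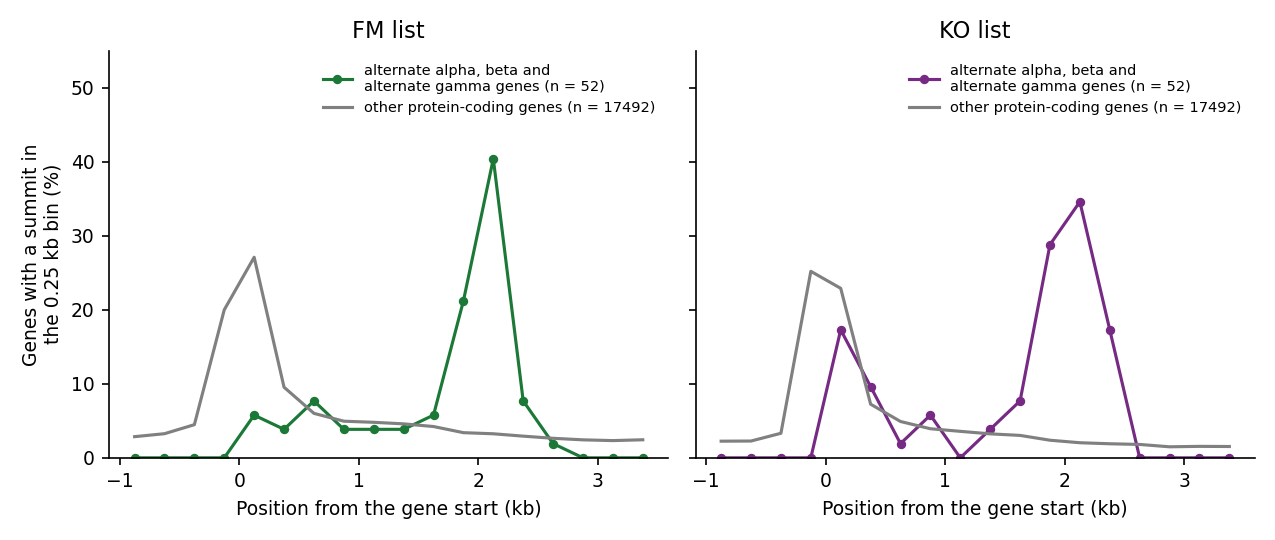
Share of genes with a peak summit in each 0.25 kb bin (vertical axis, %) against position from the gene start in kb (horizontal axis), for the FM list at the left and the KO list at the right. Coloured lines are the 52 alternate and beta protocadherin genes, highest in the bin from 2.0 to 2.25 kb at 40.4% (FM) and 34.6% (KO); grey lines are 17492 other protein-coding genes, highest next to the start.

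From 0.5 kb before to 3 kb inside the start, 44 of the 57 genes had an FM peak (77.2%) and 50 a KO peak (87.7%), compared with 72.7% and 69.7% of the other protein-coding genes in the same lists. Both lists had a peak at 42 genes. The FM list alone had one at 2 genes, Pcdha10 and Pcdha11, and the KO list alone at 8, Pcdhb3, Pcdhb15, Pcdhb19, Pcdhga3, Pcdhga5, Pcdhgb2, Pcdhgb4 and Pcdhgb5. Among other genes 4.76% had a peak in the FM list alone and 1.72% in the KO list alone, so the split at the protocadherins ran toward KO where that of other genes ran toward FM. The other genes lie on other chromosomes, and chromosome 18 as a whole had a higher share of KO-only regions. The strongest peaks of the 8 KO genes ranged in −log10 q from 2.22 (Pcdhgb4) to 13.4 (Pcdhb15). They were below 5 at Pcdhga3, Pcdhga5, Pcdhgb2 and Pcdhgb4, whereas those of Pcdha10 and Pcdha11 in the FM list were 5.81 and 6.82. Pcdha5, Pcdhb5, Pcdhb8, Pcdhgb1 and the C-type gene Pcdhgc5 had no peak in this window in either list. A gene without a peak is one below the q threshold of 0.05, not one shown to be closed.

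**Figure D4:**
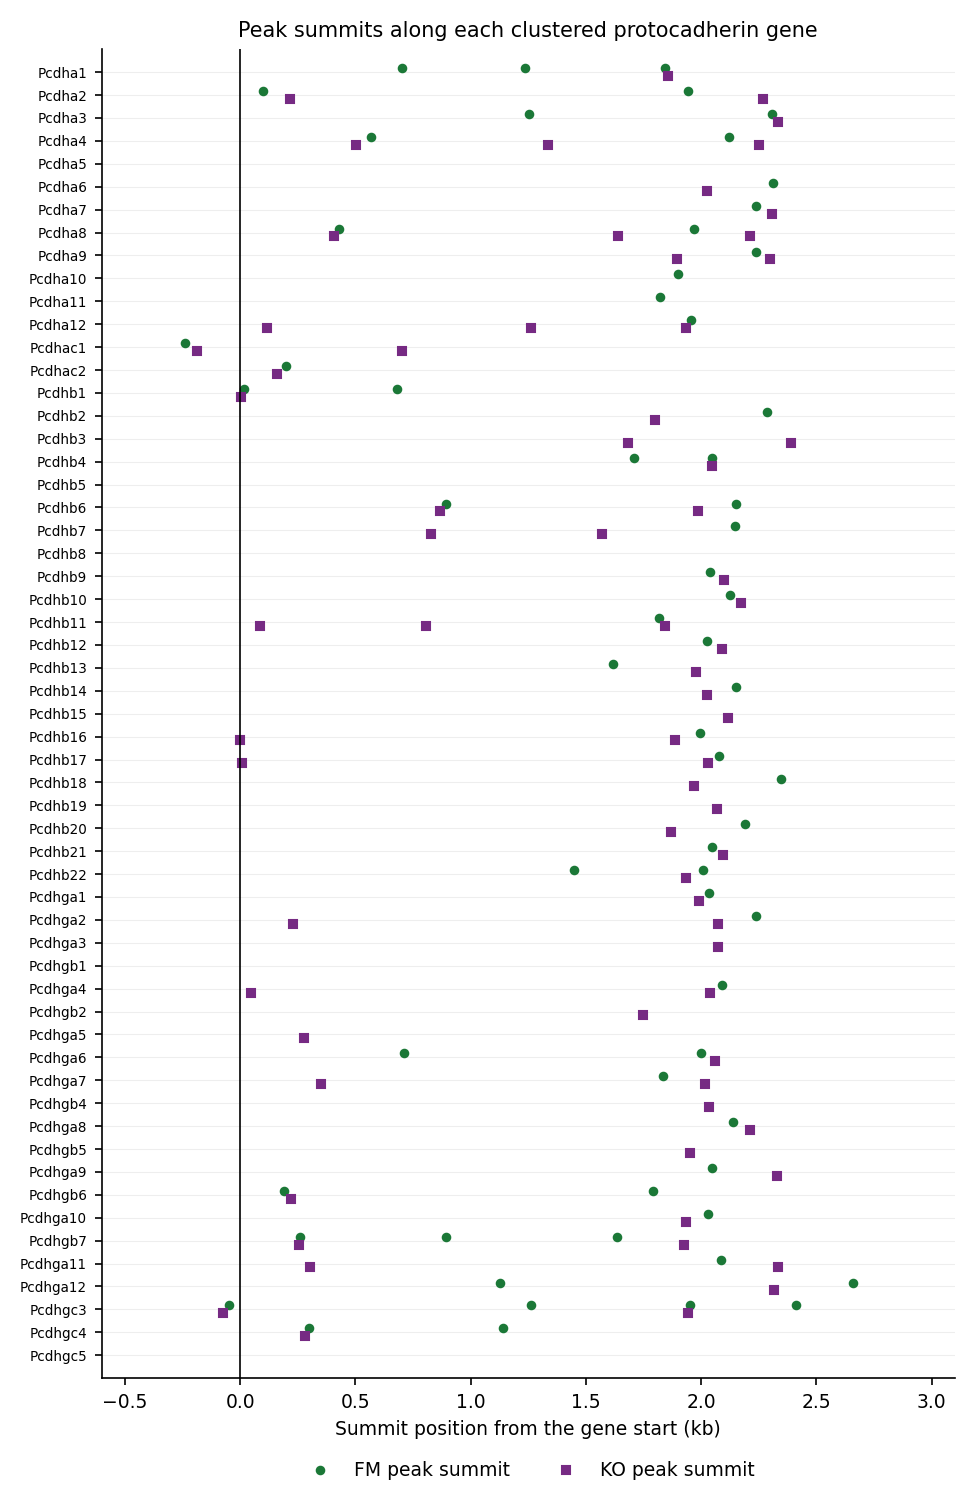
Position of every peak summit from 0.5 kb before to 3 kb inside the start (horizontal axis, kb) for each of the 57 genes in chromosome order (rows), with FM summits as circles and KO summits as squares. Most rows carry a summit near 2 kb in both lists, whereas the C-type rows Pcdhac1, Pcdhac2, Pcdhgc3 and Pcdhgc4 carry one from -0.240 to 0.297 kb.

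Among the 12 alternate alpha genes, 11 had an FM peak and 9 a KO peak in this window. The strongest FM summit of each of the 11 lay 1.82 to 2.31 kb inside the start. The strongest KO summits ranged from 0.117 to 2.33 kb, with 6 of 9 between 1 and 2.5 kb inside. Those of Pcdha4, Pcdha8 and Pcdha12 lay nearer the start, at 0.501, 0.406 and 0.117 kb. Pcdha1 had its strongest summit at 1.84 kb in the FM list (92 fragments, fold 3.15) and at 1.85 kb in the KO list (57 fragments, fold 1.94). It also had FM-only peaks at 36930290 to 36931096 (68 fragments) and 36931351 to 36931664 (58 fragments), so the FM list had 3 peaks and the KO list 1 in this window of Pcdha1. Pcdha2 and Pcdha6 were nearly level, with 75 and 73 FM fragments and 77 and 78 KO fragments. Pcdha3, Pcdha9 and Pcdha12 had 80, 80 and 85 FM fragments at their region near 2 kb, against 61, 68 and 73 KO fragments. The Pcdha10 and Pcdha11 peaks of the FM list held 62 and 65 fragments. Pcdha12 had a KO-only peak over its start (37020103 to 37020719, 76 fragments, summit 0.117 kb inside), and Pcdha4 one 1.34 kb inside (70 fragments). The strongest FM-only peak of the alpha cluster by q lay 15.6 kb from the start of Pcdha7, at 36989167 to 36989512 (72 fragments).

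Of the 5 C-type genes, 4 had their strongest summit in both lists within 0.5 kb of the start. At Pcdhac1 the region 37089531 to 37090949 held 117 FM and 103 KO fragments, with summits at -0.240 kb (FM) and -0.185 kb (KO), that is, just before the start. At Pcdhac2 the region 37143381 to 37145720 held 149 FM and 142 KO fragments, with folds of 4.13 (FM) and 3.75 (KO). Pcdhac2 gave the highest FM fold of all members. At Pcdhgc3 the region 37805979 to 37807886 held 169 FM and 253 KO fragments, and at Pcdhgc4 the region 37814883 to 37815575 held 108 FM and 183 KO fragments. The alpha C-type starts thus held slightly more FM than KO fragments, and the gamma C-type starts more KO fragments. The 4 starts had a median of 133 FM and 162 KO fragments. The 35 shared regions 1 to 2.5 kb inside alternate and beta genes had medians of 64.0 FM and 68.0 KO fragments, and ranges of 49 to 92 FM and 49 to 90 KO fragments. The lowest C-type start was Pcdhgc4 in the FM list (108 fragments) and Pcdhac1 in the KO list (103 fragments), each above the highest of these 35 regions in its list. By fold they were not separate, as the local background at Pcdhgc4 was higher, at 46.0 (FM) and 60.3 (KO) fragments. Its folds of 2.32 (FM) and 3.00 (KO) were below those near 2 kb at Pcdha1 in FM (3.15) and Pcdhb22 in KO (3.05). Pcdhgc5 had no peak from 0.5 kb before to 3 kb inside its start, and its first region, at 37822354 to 37823000, lay 3.13 kb inside.

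The 22 beta genes had an FM peak at 17 and a KO peak at 20. Median positions of the strongest summit were 2.04 kb (FM) and 2.00 kb (KO). Pcdhb22, the last gene, held 73 FM and 90 KO fragments at 37519661 to 37520708, the highest KO fold of the beta cluster at 3.05. Pcdhb14 and Pcdhb21 held 72 FM fragments each, against 74 and 84 KO fragments. Pcdhb17 held 50 FM and 78 KO fragments, the widest gap of the shared beta regions. Pcdhb1, the first gene of the cluster, was the 1 beta gene with a shared region at its start, with summits in both lists (0.0170 kb in FM with 61 fragments, 0.00500 kb in KO with 59 fragments). KO-only peaks over or close to the start were found at Pcdhb11, Pcdhb16 and Pcdhb17, with 63, 49 and 73 KO fragments. The strongest KO-only peaks of the cluster were those of Pcdhb15 (37474987 to 37475881, 82 fragments) and Pcdhb7 (37343144 to 37343417, 74 fragments). Pcdhb7 also had the stronger of the 2 FM-only beta peaks, at 37343524 to 37344009 (60 fragments), next to the KO-only one, so the peaks of the lists lay side by side there. The shared region with the highest FM fold in the beta cluster lay outside the genes, between Pcdhb20 and Pcdhb21 at 37509890 to 37510461, with 86 FM and 65 KO fragments.

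Of the alternate gamma genes, the 12 of the A type had an FM peak at 10 and a KO peak at 12, and the 6 protein-coding ones of the B type an FM peak at 2 and a KO peak at 5. Pcdhga11 held 85 FM and 54 KO fragments at 37757641 to 37758254, 1 of only 2 shared member regions with at least 1.5 times more FM fragments, the other being that of Pcdha1. Pcdhga6 held 66 FM and 85 KO fragments at 37708973 to 37709338. Pcdhgb6 and Pcdhgb7, unlike the A type in the FM list, had their strongest FM summits 0.191 and 0.262 kb inside the start, with 77 and 78 fragments. Their strongest KO summits lay 0.221 and 1.93 kb inside, with 75 and 72 fragments. The KO list did not divide the types this way. There, 4 of 5 B-type genes had their strongest summit 1 to 2.5 kb inside, whereas the A-type genes Pcdhga5 and Pcdhga7 had theirs at 0.276 and 0.351 kb. KO-only peaks near the start were found at Pcdhga2, Pcdhga4, Pcdhga5, Pcdhga7 and Pcdhga11, with 46 to 64 fragments. FM-only peaks had summits 0.709 kb inside Pcdhga6 (62 fragments) and 0.893 kb inside Pcdhgb7 (70 fragments). Pcdhgb8 lies inside the span of the gamma genes but was not among the protein-coding genes counted here. It had KO-only peaks with summits at -0.126 and 1.75 kb from its start (68 and 71 fragments). The strongest KO-only peak of all members lay between the starts of Pcdhga12 and Pcdhgc3 at 37771269 to 37771752, with 92 fragments and a fold of 3.06. It was followed by 3 more KO-only peaks of 46 to 52 fragments before the start of Pcdhgc3.

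Away from gene starts, the tallest regions were near the ends of the alpha and gamma clusters. Inside Pcdhac2, 34.8 kb from its start, the region 37178268 to 37178968 held 97 FM and 162 KO fragments. In the gap between the alpha and beta genes, a pair of shared regions lay close together. The region 37217127 to 37217586 held 79 FM and 98 KO fragments, and the region 37217696 to 37218508 held 76 FM and 199 KO fragments, with folds of 2.61 (FM) and 6.70 (KO). This was the highest KO fold of all members, whereas the FM fold there was within the range of the alternate genes. This gap is where HS5-1 is known to lie, but no file used here gives its position, so the regions were not matched to it.

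From Pcdhgc5 to just beyond the gamma genes, 6 shared regions held 129 to 235 FM fragments (median 176) and 223 to 358 KO fragments (median 284). All 6 held more KO fragments, and 4 held at least 1.5 times more. Of the shared regions on the rest of chromosome 18, 58.1% held more KO fragments and 11.9% at least 1.5 times more. The region 37824843 to 37825192 held 188 FM and 358 KO fragments, 37825769 to 37826791 held 174 FM and 309 KO fragments, and 37835285 to 37836764 held 235 FM and 328 KO fragments. The local background was also higher here, at 56.7 to 72.6 fragments in the FM list and 69.0 to 90.7 in the KO list for these 6 regions. Fold is relative to that background, and was also higher in the KO list at all 6 regions, though by a smaller ratio than the fragments. It was 2.89 (FM) and 4.13 (KO) at 37824843 to 37825192, and 4.09 (FM) and 4.70 (KO) at 37835285 to 37836764. The regions found in 1 list ran the other way, as those from Pcdhgc3 to the gamma end were all FM-only. They lay at 37808717 to 37808964 (92 fragments), 37816090 to 37816395 (83 fragments), 37824484 to 37824728 (118 fragments) and 37829796 to 37830124 (85 fragments). Regions farther on lie inside Diaph1, which encodes an actin regulator, and were not counted. Among them 37880096 to 37880596, 38.5 kb beyond the last protocadherin gene, held 80 FM and 233 KO fragments.

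At the 63 shared regions 20 held more FM and 42 more KO fragments, with 1 equal. The KO count was higher at 66.7% of them, against 58.1% of the 3074 shared regions on the rest of chromosome 18. At least 1.5 times more KO fragments were found at 10 (15.9%, against 11.9% on the rest), and at least 1.5 times more FM fragments at 2 (3.17%, against 2.08%). Both shares were thus close to those of the chromosome. By cluster, 7 of the 10 were in gamma, 2 in alpha and 1 in beta. Summits of the lists lay a median of 62.0 bp apart at the clusters and 51.0 bp on the rest of the chromosome.

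**Figure D5:**
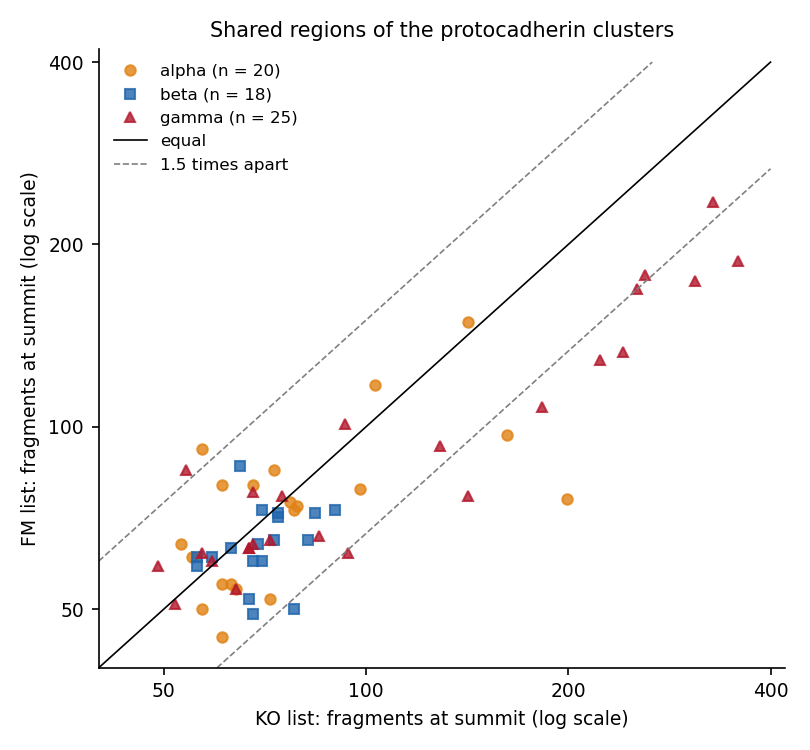
Fragments at the summit in the FM list (vertical axis) against those in the KO list (horizontal axis), both on log scales, for the 63 shared regions. Of the 63 regions, 20 lie above the line of equality and 42 below it, among them all 6 regions at the end of the gamma cluster, with up to 358 KO fragments.

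Of the 12 non-clustered protocadherin genes, which encode related adhesion proteins and lie apart from the clusters, 7 had an FM and 9 a KO summit within 1 kb of either gene end, against 71.9% (FM) and 69.0% (KO) of all protein-coding genes. Of all regions found in 1 list, 73.2% were FM-only (104472 FM-only and 38241 KO-only), and the splits of the gene lists are to be read against that share. The non-clustered protocadherins had 29 FM-only and 11 KO-only regions (72.5% FM-only), close to it. Of these, 13 FM-only and 2 KO-only regions were at Pcdh1, on chromosome 18 beyond the gamma cluster. By gene, 5 of the 12 had more FM-only and 4 more KO-only regions. The 11 genes of CTCF and cohesin, the loop-forming machinery, had such summits at 8 (FM) and 9 (KO), with 63 FM-only and 31 KO-only regions (67.0% FM-only), of which Nipbl, the cohesin loader, had 7 and 15. The 8 genes of factors known to silence the clusters, such as Smchd1 and Dnmt3b, had them at 7 in each list, with 67 FM-only and 20 KO-only regions (77.0% FM-only). Among cell type markers, a summit near an end was found at 4 of 5 epiblast genes in each list (Otx2 had none). It was found at 4 (FM) and 3 (KO) of 4 streak genes and at all 5 feeder fibroblast genes in each list. With such a summit at 71.9% (FM) and 69.0% (KO) of all protein-coding genes, these counts cannot check the cell types. Fibroblast markers had 63 FM-only and 13 KO-only regions (82.9% FM-only, against 73.2% of all), and the share of feeder cells in the peaks of the clusters was not tested.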

How the data were processed

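Per the submitters' processing notes, bcl2fastq, Bowtie2, SAMtools and MACS2 were used with mm10; the sources used here give no versions, read filters, Tn5 shift or way of pooling libraries. The deposited values per peak are a fold enrichment (ratio), −log10 p and −log10 q, from the authors' peak caller. The deposited integer score per peak was not used. The number of reads is unknown. Rows of 1 peak with several summits were collapsed to that of lowest p-value, and autosomes, X and Y were kept. Genes came from RefSeq (GRCm38.p6, which mm10 names); 3 read-through models (Gm37013, Gm38666, Gm38667) spanning alpha to gamma were left out of the nearest-gene search. Strand of other genes came from the RefSeq promoter table, without chromosome 18. Peaks were shared at an overlap of 1 bp or more. Fragments and background were solved from fold = (fragments + 1)/(background + 1) and the Poisson p-value; all 84 FM and 99 KO member peaks gave whole numbers within a tolerance of 0.02. They compare lists only if both were called with the same fragment extension. Shares carry exact Clopper-Pearson intervals at 95%. No test across groups was made. Functions were tested on simulated data. Regions were named by fold (the 5 highest shared per cluster and list) or by −log10 q of at least 5 for specific ones, with gap and edge regions; other regions and genes named were chosen after their values were seen. Members and lists were chosen with earlier results of these data known. Python 3.11.15, pandas 2.3.3 and SciPy 1.17.1 were used.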

Additional observations from a re-analysis of the deposited data

How the results depend on the processing

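Of the recomputed values, 57 stayed within 1.5 times the reported count or within the interval of the reported share (for the difference between the clusters and the rest of chromosome 18, the interval of the clusters' share less the chromosome's share), and 14 moved. That difference, -21.9 percentage points over all peaks, was negative in all alternatives run, from -31.0 to -12.3. In 3 of them the exact interval of the clusters took in the chromosome's share. Over peaks that reach 5 in −log10 q the FM-only share was 41.7% (27.6 to 56.8) at the clusters against 55.9%, a difference of -14.3 points. With the 50000 peaks of lowest p-value from each list it was 18.8% (6 of 32, 7.21 to 36.4) against 31.0%, a difference of -12.3 points, over 21 FM and 42 KO peaks, with 38.1% of KO peaks shared. With a fold of at least 3 in both lists it was 10.0% (1 of 10, 0.253 to 44.5) against 28.8%, over 6 FM and 14 KO peaks, with 35.7% of KO peaks shared. These settings keep fewer peaks by construction. The share of FM peaks overlapping a KO peak was 67.2% over peaks that reach 5 in −log10 q, and 88.1% when KO peaks within 500 bp also counted. Genes with a summit within 2 kb of the start numbered 24 (FM) and 33 (KO), against 13 and 21 within 1 kb, as the wider window reaches part of the summits near 2 kb. The window from 1 to 2.5 kb inside the start was set after the data were seen, as were the alternatives to it. Over peaks that reach 5 in −log10 q, 28 (FM) and 31 (KO) of the 52 alternate and beta genes had a summit in that window. Keeping the read-through models as competing genes, likewise added after the data were seen, gave 79 FM and 93 KO peaks. No paired analysis was possible because each group is deposited as 1 list, so no replicate could be left out either.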
